A study of Mus musculus with 24 samples.

Results

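The genes described here are those that were silent in both embryonic stem cell (ESC) lines of the study before treatment and switched on in both lines after it. They were selected on the measured values. The mean normalised read count had to be below 10 in the untreated cells of each line and at least 50 in the treated cells of each line. RefSeq protein-coding transcripts (NM_ identifiers) were used with 1 transcript per gene name, and gene names with any of 25 family starts, such as Hox, Pax, Sox and Wnt, were dropped. This left 24 genes of 17417 gene names and 20633 transcripts measured.

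The study asked whether repression by Polycomb repressive complex 1 (PRC1) needs its catalytic activity, in 2 mouse E14 ESC lines that were each a single clone. In PRC1CKO cells (clone B9, genotype Ring1a-/-; Ring1bfl/fl; Rosa26::ERT2-Cre), 4-hydroxytamoxifen (OHT) activates the Cre recombinase, expressed from the Rosa26 locus, and removes RING1B. In PRC1CPM cells (clone 41), RING1A carries I50A/D53K throughout, and OHT inverts an exon of Ring1b so that RING1B with I53A/D56K replaces the wild-type protein. Calibrated RNA-seq was made with Drosophila SG4 cells added before RNA extraction, from 3 biological replicates of untreated cells and 3 of cells after 72 h with 800 nM OHT in each line, or 12 libraries. By genotype, the untreated cells of both lines already lacked RING1A or its activity, and untreated cells with intact RING1A were not part of the comparison. Each library held between 14668159 and 27016156 reads on genes. Rnf2, which encodes RING1B, averaged 1526 ± 201 normalised reads before and 1546 ± 50.8 after OHT in PRC1CKO cells (SD, n = 3 each). The means in PRC1CPM cells were 1696 ± 140 and 1511 ± 214 (SD, n = 3 each), so a count over its gene body does not check the loss or the exchange of the exon. Ring1, which encodes RING1A, averaged 227 before and 254 after OHT in PRC1CKO cells and 162 and 140 in PRC1CPM cells, so its count does not check the Ring1a deletion either.

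PRC1 is a ubiquitin ligase complex whose catalytic core, formed by RING1A or RING1B with a PCGF protein, places mono-ubiquitin on histone H2A at lysine 119. Polycomb complexes occupy CpG islands at developmental genes in ESCs and hold many of them at a low level of expression. By known role, the 24 genes were sorted into 7 transcription factors, 4 signalling genes, 5 genes of the synapse and 8 genes of other function.

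Of 3122 gene names that were silent in both lines before treatment, 2627 (84.1%) stayed below 10 in both lines after OHT. The OHT limit of 50 was reached in both lines by 32, in PRC1CKO cells alone by 29 and in PRC1CPM cells alone by 7. The 8 names dropped from the 32 were Hoxa10, Six3, Lhx8, Irx1, Six2, Gabra2, Pax1 and Wnt10b. Just inside the untreated limit lay Fibcd1 (higher untreated mean 9.76), Cbln2 (9.66) and Grp (9.49), and just outside it lay Mcoln2 (10.2), Srd5a2 (10.4) and Far2 (10.5). Just inside the OHT limit lay Alx1 (lower OHT mean 50.2), Olfr376 (50.8) and Nr4a3 (52.8), and just outside it lay Slc9a2 (49.9), En1 (49.5) and Klhl40 (48.6).

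RefSeq promoter sequences of GRCm38.p6, 250 bases before the start and 50 after it, were matched to 17 of the 24 genes; Adra1a, Alx1, Cbln2, Grp, Neto1, Olfr376 and Pitx1 had none. Below are the 250 bases before the start of 5 genes, 5′ to 3′ on the gene's strand, shown because they span the range of CG content and overlap no exon of another annotated transcript. Capitals mark CG dinucleotides. Gdf10 at chr14:33923337-33923586 (plus strand) held 35 CGs in these bases, C1ql3 at chr2:13010865-13011114 (minus strand) 23, Nxph1 at chr6:8949769-8950018 (plus strand) 20, Gdnf at chr15:7809798-7810047 (plus strand) 7 and Olfm3 at chr3:114903828-114904077 (plus strand) 4.
Gdf10: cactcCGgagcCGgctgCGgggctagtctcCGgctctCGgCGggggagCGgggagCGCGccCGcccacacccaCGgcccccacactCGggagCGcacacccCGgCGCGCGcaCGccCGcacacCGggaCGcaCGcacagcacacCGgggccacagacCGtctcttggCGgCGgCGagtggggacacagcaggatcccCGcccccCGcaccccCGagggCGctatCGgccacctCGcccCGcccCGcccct
C1ql3: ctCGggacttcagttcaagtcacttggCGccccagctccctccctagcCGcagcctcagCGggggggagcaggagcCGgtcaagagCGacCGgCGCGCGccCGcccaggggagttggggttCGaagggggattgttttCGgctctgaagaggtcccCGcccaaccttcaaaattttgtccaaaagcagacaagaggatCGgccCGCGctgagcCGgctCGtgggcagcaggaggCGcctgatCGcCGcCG
Nxph1: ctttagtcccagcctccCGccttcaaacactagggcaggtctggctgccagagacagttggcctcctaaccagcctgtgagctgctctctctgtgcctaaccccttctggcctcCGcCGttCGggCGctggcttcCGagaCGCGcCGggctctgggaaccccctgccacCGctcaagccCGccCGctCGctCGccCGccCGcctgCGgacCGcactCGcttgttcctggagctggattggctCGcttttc
Gdnf: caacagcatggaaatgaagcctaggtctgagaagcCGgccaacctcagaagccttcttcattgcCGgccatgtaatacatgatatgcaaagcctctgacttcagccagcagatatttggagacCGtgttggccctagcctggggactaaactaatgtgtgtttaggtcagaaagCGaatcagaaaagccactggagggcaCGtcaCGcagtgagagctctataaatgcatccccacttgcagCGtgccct
Olfm3: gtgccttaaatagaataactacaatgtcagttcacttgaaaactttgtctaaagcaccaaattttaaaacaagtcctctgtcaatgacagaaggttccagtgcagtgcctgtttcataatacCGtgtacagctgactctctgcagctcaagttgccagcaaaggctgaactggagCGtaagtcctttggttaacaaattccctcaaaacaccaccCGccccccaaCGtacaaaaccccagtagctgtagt

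The CG content of these promoters was set beside that of other genes. The ratio of observed to expected CGs over the 300 bases had a median of 0.738 over the 17 genes, with a range from 0.354 in Olfm3 to 1.14 in Fibcd1. Over all 13165 genes with a promoter sequence the median was 0.682, and over the 2283 silent genes that stayed below 50 in both lines after OHT it was 0.193. The ratio was above 0.6 for 11 of the 17 genes (64.7%), for 57.9% of all genes and for 6.18% of the silent genes that stayed below 50. In windows of about 1 kb centred on the start of the deposited interval, which all 24 genes had, the ratio was above 0.6 for 15 (62.5%), against 56.1% of 17414 gene names and 5.73% of 3054 silent genes that stayed below 50. Of the 44 other silent genes that reached 50 in at least 1 line, 24 (54.5%) had a ratio above 0.6 in this window. These shares are descriptions of sequence, and no test was made of them.

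Olfm3, Prrx1, Irf4, Arsj, Bean1 and Gdnf had ratios below 0.6 in the RefSeq promoter. Olfm3 and Prrx1 were the poorest in CG, with 5 and 6 CGs in 300 bases. Short motifs were searched on both strands of the 300 bases by their exact letters, as a description with no test; those written CACGTG and GGCGGGAA each contain a CG. TATAAA was present in Gdnf, Irf4 and Duoxa2 (17.6% of the 17, 10.1% of all genes with a sequence and 25.5% of the silent genes that stayed below 50). CACGTG was present in Zic1 and Bean1 (11.8%, against 8.96% and 3.64%), AGGTGTGA in Duoxa2 (5.88%, against 1.06% and 2.10%) and GGCGGGAA in none (0%, against 3.49% and 0.657%). A match of letters is not evidence of binding.

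**Figure D1:**
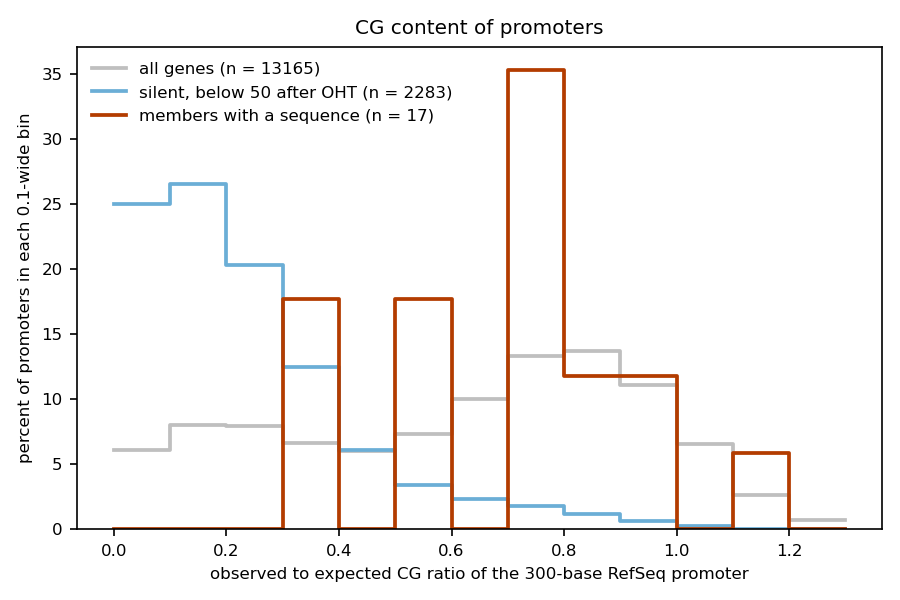
Distribution of the observed to expected CG ratio of 300-base RefSeq promoters, as the percent of promoters (y axis) in bins 0.1 wide (x axis). The 17 genes with a sequence (dark orange) start at 0.354 and have a median of 0.738, while silent genes that stayed below 50 after OHT (blue) have a median of 0.193 and all genes (grey) one of 0.682.

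In the untreated cells the 24 genes were close to the limit of detection. Summed over the 6 untreated libraries, the reads on a gene ranged from 9 (Adra1a) to 52 (Fibcd1), with a median of 32, and those on all 24 genes from 99 to 171 per library. After OHT the sum over the 24 genes was 2624, 2341 and 2034 normalised reads in the PRC1CKO replicates and 2190, 1607 and 1987 in the PRC1CPM replicates. The groups of OHT libraries overlapped in this sum, but for each replicate number the PRC1CPM sum was below the PRC1CKO sum. Every gene had all 6 OHT libraries above all 6 untreated libraries, which held for 12.2% of the 16940 transcripts tested and is what the selection favours. The mean after OHT was 6.70 to 61.8 times the untreated mean in PRC1CKO cells and 6.09 to 32.5 times in PRC1CPM cells; these ratios rest on few untreated reads and carry no test. Of the recovered read counts from 1 to 20 over all transcripts, 80.2% were even, as were 85.8% of the counts above 0 of the 24 genes, so independent fragments may number fewer than the reads.

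**Figure D2:**
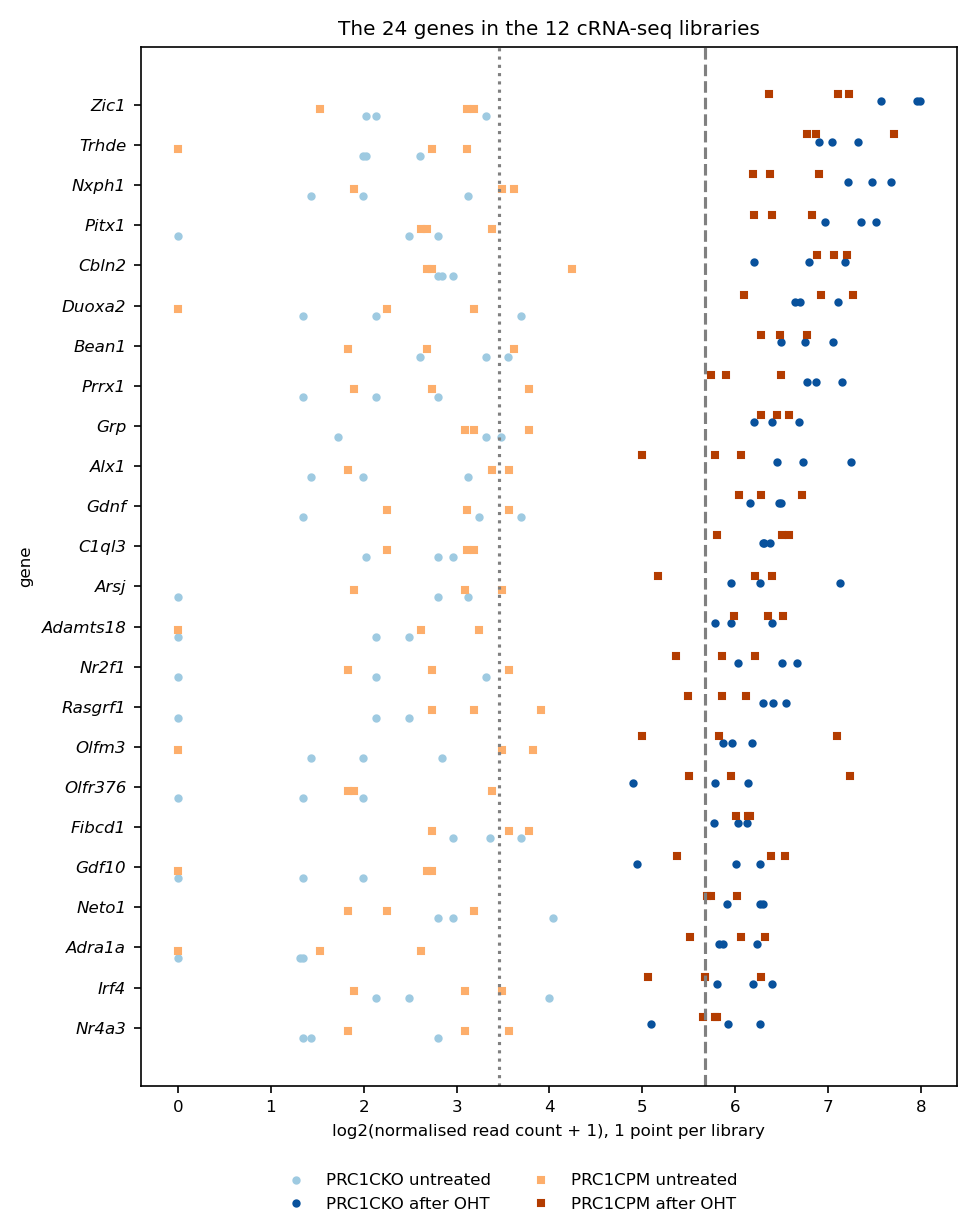
Normalised read counts of the 24 genes on a log2(value + 1) scale (x axis), 1 point per library, in order of the mean after OHT. The dotted and dashed lines mark the limits of 10 and 50 on group means that chose the genes. Untreated libraries lie to the left of all OHT libraries for each gene, and Zic1 reached 253 in PRC1CKO and 149 in PRC1CPM cells.

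Of the 24 genes, 7 encode transcription factors. Zic1 (NM_009573, chr9:91360345-91365799), a zinc finger factor of the dorsal neural tube, had the highest mean after OHT over both lines, also per kb of the deposited interval (32.3 normalised reads per kb), although in PRC1CPM cells alone the means of Trhde (144) and Cbln2 (132) were above its 122. Its normalised read count was 8.94, 3.08 and 3.38 in untreated and 253, 247 and 189 in OHT-treated PRC1CKO cells. In PRC1CPM cells it was 7.67, 1.88 and 8.13 untreated and 149, 81.2 and 137 after OHT. Every OHT library of PRC1CPM lay below every one of PRC1CKO. Pitx1 (NM_011097, chr13:55825054-55831425), a homeobox factor of the hindlimb and pituitary, had 182, 163 and 124 in PRC1CKO and 113, 72.7 and 83.2 in PRC1CPM cells after OHT, from 0 to 9.42 in the untreated libraries. Prrx1 (NM_011127, chr1:163245119-163313650), a homeobox factor of limb and facial mesenchyme, had 116, 141 and 108 against 88.8, 58.8 and 52.6. In both, the lines did not overlap after OHT.

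Alx1 (NM_172553, chr10:103007847-103028777), a homeobox factor of the facial mesenchyme, showed the largest log2 difference between the lines. It had 2.98, 7.70 and 1.69 in untreated and 151, 106 and 86.4 in OHT-treated PRC1CKO cells, and 2.56, 9.42 and 10.8 untreated and 54.1, 30.9 and 65.7 after OHT in PRC1CPM cells. Again no OHT library of PRC1CPM reached the lowest of PRC1CKO. Nr2f1 (COUP-TFI), a nuclear receptor of cortical patterning, had 100, 89.8 and 64.6 in PRC1CKO and 73.4, 40.2 and 57.0 in PRC1CPM cells after OHT. Irf4, an interferon regulatory factor of lymphocytes, had 83.2, 72.2 and 55.0 against 50.2, 32.5 and 76.7, and Nr4a3, an orphan nuclear receptor, 59.7, 75.9 and 33.1 against 54.1, 49.5 and 54.8. The lines overlapped for these last 3 genes.

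Grouped as signalling genes were 3 secreted ligands, Grp, Gdnf and Gdf10, and the adrenergic receptor Adra1a. Their means after OHT were 56.3 to 85.8 in PRC1CKO and 63.2 to 86.0 in PRC1CPM cells. Gdnf (NM_001301332), a neurotrophic ligand of the RET receptor system, had 87.7, 70.3 and 89.0 against 104, 64.9 and 76.7. Grp, which encodes gastrin-releasing peptide, had 83.2, 102 and 72.4 against 94.6, 86.6 and 76.7. Gdf10, a TGF-beta family ligand, had 63.3, 75.9 and 29.7 against 91.7, 82.7 and 40.5. Adra1a, an alpha-1 adrenergic receptor, had the fewest untreated reads of the 24 genes and 74.1, 55.5 and 57.6 against 79.2, 44.8 and 65.7. For all 4 genes the libraries of the lines overlapped.

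Among the genes of the synapse, Nxph1 (NM_008751, chr6:8950019-9248578), which encodes a secreted ligand of neurexins, had the highest normalised read count in OHT-treated PRC1CKO cells. It had 204, 148 and 176 in PRC1CKO and 119, 82.0 and 72.3 in PRC1CPM cells after OHT, with no overlap. These counts are not corrected for length. Per kb of the deposited interval, Nxph1 had 0.590 in OHT-treated PRC1CKO cells, below Cbln2 (15.2), C1ql3 (8.85) and Neto1 (0.664) and above Olfm3 (0.286). Cbln2, a secreted synapse organiser, had 145, 110 and 72.4 against 147, 133 and 117. C1ql3, of the C1q-like family of secreted synaptic proteins, had 78.6, 77.8 and 82.0 against 94.6, 54.9 and 89.8. Neto1, an auxiliary subunit of glutamate receptors, had 75.9, 77.8 and 59.3 against 63.7, 51.0 and 52.6. Olfm3, which encodes an olfactomedin-domain protein, had 61.5, 57.4 and 71.5 against 30.9, 55.7 and 136. A single PRC1CPM replicate thus set the spread of Olfm3. The row used for Olfm3 was NM_153458, listed as 221686 bases long. A shorter transcript of the gene, NM_153157, is listed as 44799 bases long and ends at the same base. Its means were 1.51 untreated and 5.96 after OHT in PRC1CKO cells, and 0.628 and 3.69 in PRC1CPM cells. The rise of Olfm3 past the OHT limit was therefore seen over the longer interval alone.

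The other 8 genes are enzymes and proteins of varied function. Trhde, the ectoenzyme that degrades thyrotropin-releasing hormone, had 159, 118 and 131 in PRC1CKO and 208, 108 and 116 in PRC1CPM cells after OHT, and a gene body listed as 402549 bases long. Duoxa2, the maturation factor of the dual oxidase DUOX2, had 136, 99.0 and 103 against 121, 67.3 and 153. Rasgrf1 encodes a Ras guanine nucleotide exchange factor of neurons, and the row used here is a transcript listed as 6072 bases long, with 3 exons. It was the only protein-coding transcript measured under this name, so the values cover that interval alone. It had 0, 4.62 and 3.38 untreated and 84.1, 77.8 and 92.5 after OHT in PRC1CKO cells, and 14.1, 5.65 and 8.13 untreated and 68.5, 44.1 and 57.0 after OHT in PRC1CPM cells. Rasgrf1 was the one gene of the 24 whose untreated libraries did not overlap between the lines, and its OHT libraries did not overlap either, in the opposite direction. Bean1, a membrane protein, Arsj, an arylsulfatase, Adamts18, a secreted metalloprotease, Fibcd1, a chitin-binding receptor, and Olfr376, an olfactory receptor, had means after OHT between 50.8 and 109 in PRC1CKO cells and between 64.0 and 91.0 in PRC1CPM cells. Olfr376 varied widely, with 28.9, 69.4 and 54.1 against 44.4, 61.1 and 150.

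The level of the 24 genes was then compared between the lines. The selection bears on this comparison, since both OHT means had to reach 50 and the 29 and 7 silent genes that did so in 1 line alone were left out. The fitted values therefore describe the genes as selected, and nothing is read from their count against the share over all transcripts. Log2(normalised read count + 1) was therefore fitted with limma over the 16940 transcripts that reached 10 reads in 3 or more libraries. A gene was called when its p, adjusted over all of them by the Benjamini-Hochberg method, was under 0.05 and the change exceeded 1.5-fold. Of the 24 genes, 0 were called lower and 0 higher in PRC1CPM than in PRC1CKO cells after OHT, where 0.218% of all transcripts were called lower and 1.25% higher. At an unadjusted p under 0.05 there was 1 gene, Alx1, against 11.0% of all transcripts, and DESeq2 and edgeR on the recovered reads called none either. With the replicate number as a block, limma called Alx1 lower (adjusted p = 0.0415; 1.37% of all transcripts were called lower), and DESeq2 called Zic1 (0.0114), Nxph1 (0.0282) and Prrx1 (0.0486) lower (1.4%). The log2 difference was below 0 for 17 of the 24 genes, with a median of -0.043, against 35.1% of all transcripts and a median of 0.097. With 1 library left out, the median over the 24 genes ranged from -0.24 to 0.018, so its sign rests on single libraries. With TMM scaling, the median over the 24 genes was -0.14 and that over all transcripts -0.0047.

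The values furthest below 0 were those of Alx1 (log2 difference -1.20, SE 0.52, 95% interval -2.25 to -0.14, adjusted p = 0.343 from limma), Nxph1 (-0.97, SE 0.49, adjusted p = 0.465), Zic1 (-0.94, SE 0.47, adjusted p = 0.457), Prrx1 (-0.88) and Pitx1 (-0.80). With Rasgrf1 (-0.60) they were the 6 genes for which every PRC1CPM library lay below every PRC1CKO library after OHT, an arrangement found in 4.35% of all transcripts. The reverse arrangement was found in 0 of the 24 genes and in 11.9% of all transcripts. The highest values were those of Olfr376 (0.62, SE 0.59), Gdf10 (0.36), Cbln2 (0.33), Adamts18 (0.24) and Fibcd1 (0.13), with overlapping libraries in all 5. Single libraries moved these values. Olfr376 had 0.12 without OHT-treated PRC1CPM replicate 3, and Fibcd1 0.024 without OHT-treated PRC1CKO replicate 2. Without OHT-treated PRC1CKO replicate 3, Cbln2 had 0.061, Adamts18 0.11 and Gdf10 -0.036. Each such fit also breaks 1 replicate pair. Between OHT libraries of the same number, PRC1CPM was above PRC1CKO every time for Gdf10, Cbln2 and Adamts18. PRC1CPM was below every time for Nr2f1 and Neto1, besides the 6 genes without overlap. All 7 transcription factors had a value below 0, from -1.20 to -0.013, as had 2 of the 4 signalling genes (range -0.026 to 0.36), 4 of the 5 genes of the synapse (-0.97 to 0.33) and 4 of the 8 others (-0.60 to 0.62). Differences between these role groups were not tested. In a fit of the 6 OHT libraries alone, Alx1 (adjusted p = 0.0154), Zic1 (0.0319) and Nxph1 (0.0382) were called lower in PRC1CPM cells, as were 0.832% of all transcripts.

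The 95% intervals of the fit of all 12 libraries without a block were wide. Their median half-width was 1.05 on the log2 scale, and the interval lay within 1 of 0 on both sides for 2 genes, Grp and C1ql3. For the other 22 the interval reached past 1 on at least 1 side. These intervals do not use the replicate pairing, and the fit of the 6 OHT libraries and the blocked fits made the calls given above. The study's own list of partially derepressed genes, which was drawn up from the same libraries and is not independent of them, holds 241 genes, among them Zic1, Nxph1 and Alx1 (12.5% of the 24 genes and 1.24% of the list, which holds 1.17% of all transcripts). That list was drawn only from Polycomb-occupied genes that rose in PRC1CKO cells. Its share of all transcripts is therefore no baseline for the 24 genes, which rose by selection.

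**Figure D3:**
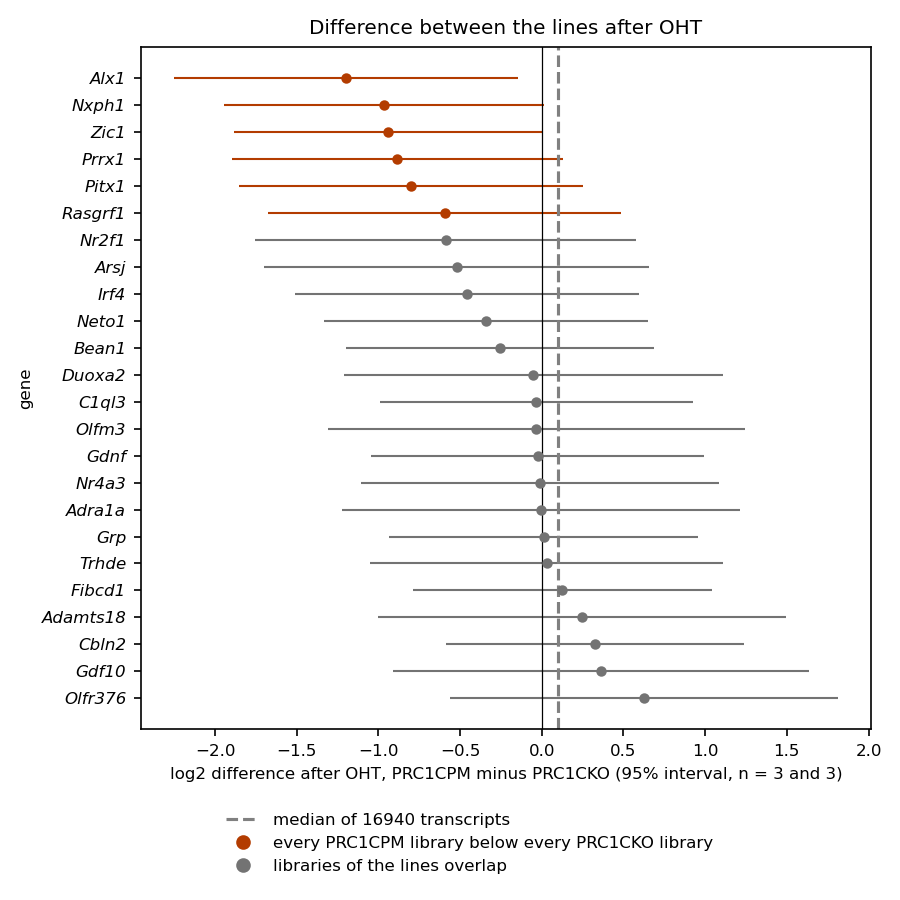
Log2 difference between the lines after OHT (PRC1CPM minus PRC1CKO, x axis) for each gene, with its 95% interval from the limma fit. The 6 genes in dark orange, from Alx1 at -1.20 to Rasgrf1 at -0.60, had no overlap between the libraries of the lines; the dashed line is the median of all transcripts, 0.097.

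The change with OHT was then compared between the lines through the interaction of line and treatment, called at an adjusted p under 0.05 in limma. It is built from the 4 group means that the rule used, so it too describes the genes as selected, and nothing is read from the shares over all transcripts beside it. Of the 24 genes, 0 were called below 0 and 0 above, against 0.0236% and 0% of all transcripts. The interaction was below 0, a smaller change in PRC1CPM cells, for 19 of the 24 genes, with a median of -0.46, against 53.3% of all transcripts and a median of -0.018. At an unadjusted p under 0.05 there were 5 genes, against 2.93% of all transcripts, and DESeq2 and edgeR called none. The value furthest from 0 was that of Rasgrf1 (-2.33, adjusted p = 0.749), then Alx1 (-1.94) and Pitx1 (-1.93), both with an adjusted p of 1.00. With the replicate block, limma called Rasgrf1 (adjusted p = 0.0177) and Pitx1 (0.0428) below 0, as it did 1.45% of all transcripts. For genes this low before treatment, the interaction also rests on the few untreated reads and on the pseudocount of 1.

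Before treatment, 0 of the 24 genes were called between the lines by limma, against 2.69% of all transcripts (2.21% higher and 0.478% lower in PRC1CPM cells), while 3 had an unadjusted p under 0.05, against 14.1%. The rule held both untreated means below 10, so nothing is read from these counts against those shares. DESeq2 and edgeR called none, while limma with the replicate block called Rasgrf1 (adjusted p = 0.00139) and Pitx1 (0.0331), both higher in PRC1CPM cells, and 11.1% of all transcripts. The log2 difference was above 0, higher in PRC1CPM cells, for 19 of the 24 genes and below 0 for 5, with a median of 0.45, while 32.1% of all transcripts lay below 0, with a median of 0.12. Rasgrf1 had 1.74 (adjusted p = 0.0632) and Olfr376 1.26 (adjusted p = 0.312). The untreated libraries of PRC1CPM lay above those of PRC1CKO without overlap for 1 of the 24 genes and for 9.23% of all transcripts, and below them for 0 of the 24 and 2.55%.

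The genes next to the 24 genes were also examined, since the selection did not use them. Taking the nearest tested gene on each side whose deposited interval does not overlap, 46 genes other than the 24 were examined. In PRC1CKO cells 14 of them were called higher and 0 lower (16.5% of all transcripts were called higher and 3.09% lower), and in PRC1CPM cells 12 and 0 (13.1% and 1.4%). Within 100 kb lay 22 of them, of which 7 were called higher and 0 lower in each line. Zic4, another zinc finger factor, lies 3173 bases from Zic1 and had a mean of 0.993 in untreated and 48.3 in OHT-treated PRC1CKO cells, and 0 and 22.1 in PRC1CPM cells. Duox2, the oxidase that DUOXA2 matures, lies 735 bases from Duoxa2 and rose from 16.0 to 264 in PRC1CKO and from 17.9 to 314 in PRC1CPM cells (adjusted p = 3e-12 and 1.4e-11 from limma). Duoxa1, the maturation factor of DUOX1, lies 664 bases away on the other side and rose from 11.9 to 85.8 and from 12.1 to 68.9. Cbln2 and Neto1 are themselves neighbours, 209213 bases apart. On either side of Gdnf, Egflam, 411658 bases away, rose from 45.5 to 385 and from 35.1 to 229, while Wdr70, 35475 bases away, had 2880 and 3564 in PRC1CKO and 3154 and 3597 in PRC1CPM cells and did not pass the test in either line. Of the 46 neighbours, 31 were called in neither line.

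Libraries were made with a directional kit, which keeps strand, and reads were counted over whole gene bodies. Whether the counting used strand is not given in the sources used here, so overlapping genes may share reads. Pter overlaps C1ql3 on the opposite strand and had means of 406 untreated and 634 after OHT in PRC1CKO cells, and of 441 and 506 in PRC1CPM cells. A noncoding gene, A830082K12Rik, overlaps Nr2f1 on the opposite strand and went from 3.64 to 67.0 in PRC1CKO and from 5.67 to 33.8 in PRC1CPM cells. In the RefSeq annotation, though not in the deposited intervals, Zic4 overlaps Zic1 and noncoding genes overlap Trhde, Prrx1, Bean1, Grp and Arsj. The deposited interval of a microRNA, Mir669b, overlaps that of Olfm3.

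The wider families of these genes were examined through 13 gene lists, counted by limma calls in the OHT-against-untreated comparison of each line. Of 62 tested homeobox genes outside the dropped families, 46 were called higher and 1 lower in PRC1CKO cells, and 43 and 1 in PRC1CPM cells. The lists hold 14 of the 24 genes, whose rise the rule fixed; without them the counts were 43 and 40 of 59 here, 35 and 28 of 65 for zinc finger and nuclear receptor genes, 32 and 28 of 55 for synaptic adhesion, and 1 fewer for each of the 5 lists with 1 such gene. Besides Pitx1, Barx1, a factor of the stomach and face, rose from 6.26 to 240 in PRC1CKO and from 31.0 to 222 in PRC1CPM cells, and Otx1, of the forebrain, from 6.93 to 164 and from 17.4 to 131. Of 68 tested zinc finger and nuclear receptor genes, 38 were higher and 6 lower in PRC1CKO, and 31 and 3 in PRC1CPM cells. Nr2f2, the close relative of Nr2f1, rose from 9.53 to 301 and from 14.3 to 131, while Sall1, a zinc finger factor expressed in ESCs, fell from 2837 to 880 and from 2969 to 1378. Of 45 tested bHLH genes, 19 were higher and 1 lower in PRC1CKO, and 16 and 0 in PRC1CPM cells.

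Of 58 tested genes of synaptic adhesion and synapse organisation, 35 were higher and 1 lower in PRC1CKO cells, and 31 and 0 in PRC1CPM cells. Nlgn1, a postsynaptic adhesion protein that binds neurexins, rose from 25.6 to 956 and from 50.9 to 524. Of 49 receptor tyrosine kinases and growth factor ligands, 35 were higher and 3 lower in PRC1CKO, and 28 and 2 in PRC1CPM cells. Gfra2, a receptor of the GDNF family, rose from 16.8 to 128 and from 24.2 to 108. Of 46 TGF-beta ligands and antagonists, 21 were higher and 5 lower in PRC1CKO, and 17 and 5 in PRC1CPM cells. The neuropeptides had 15 higher and 1 lower of 34 in PRC1CKO, and 12 and 1 in PRC1CPM cells; Npy, which encodes neuropeptide Y, rose from 3.76 to 41.2 and from 9.49 to 46.3.

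The remaining lists gave counts of the same order. In PRC1CKO and PRC1CPM cells respectively, 46 and 34 of 73 axon guidance genes were called higher, with 1 and 0 called lower. For the G protein-coupled receptors it was 46 and 40 of 83 (4 and 1 lower), for synaptic vesicle and transmitter transport genes 26 and 17 of 55 (4 and 2 lower), for cation channels 23 and 22 of 56 (4 and 3 lower), for non-collagen matrix genes 32 and 29 of 57 (3 and 0 lower) and for germline genes 27 and 25 of 46 (1 and 1 lower). Differences in these counts between the lines were not tested.

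**Figure D4:**
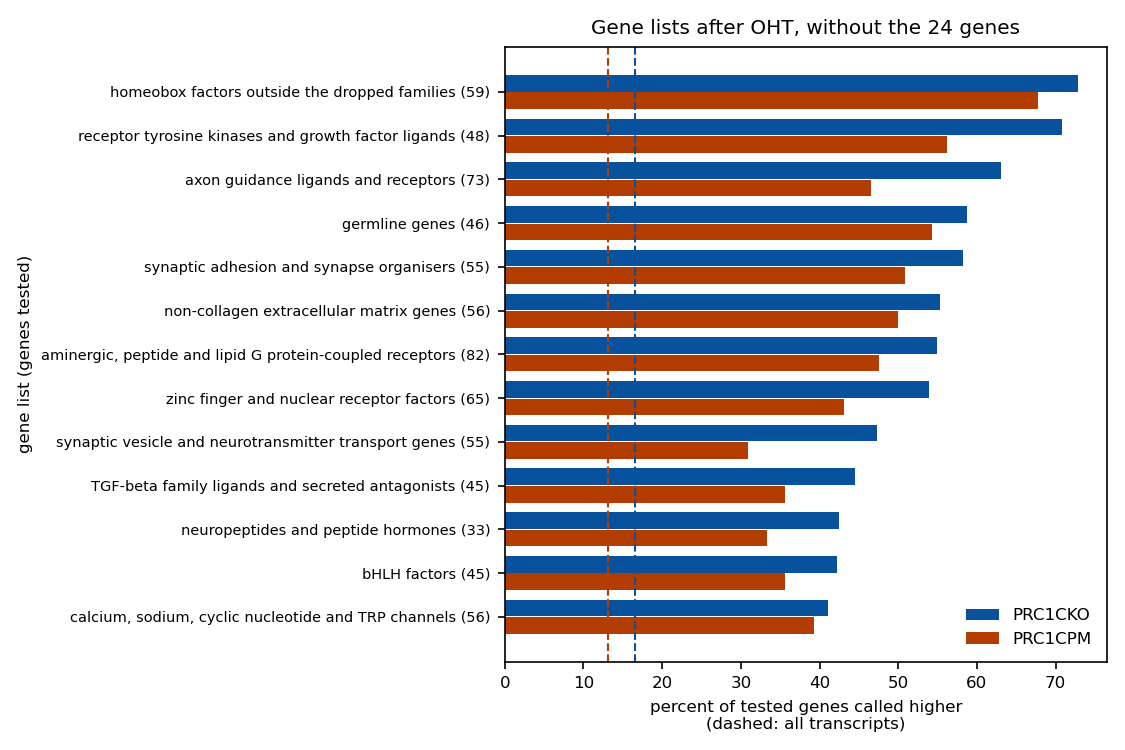
Percent of the tested genes of each list, leaving out any of the 24 selected genes, that limma called higher after OHT (x axis) in PRC1CKO (blue) and PRC1CPM (dark orange) cells, with the number tested in brackets. Dashed lines mark the percent of all transcripts called higher, 16.5% in PRC1CKO and 13.1% in PRC1CPM cells; the homeobox list is highest, with 43 and 40 of 59.

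The identity of the cells was checked with marker genes, whose counts stand beside 16.5% of all transcripts called higher and 3.09% lower in PRC1CKO cells, and 13.1% and 1.4% in PRC1CPM cells. The most abundant marker is the one with the highest mean normalised read count, with no correction for length. All 11 measured ESC markers were present, Tdgf1 being the most abundant, and their summed normalised read count ranged from 71276 to 108548 in untreated and from 61971 to 72016 in OHT-treated PRC1CKO cells, and from 62362 to 89797 and from 46671 to 81566 in PRC1CPM cells. Of them, 3 were called lower in PRC1CKO (Fgf4, Sox2 and Utf1) and 1 in PRC1CPM cells (Fgf4), with 0 higher in either. Among the markers of other cell types, 7 of 12 of primitive endoderm were higher in PRC1CKO and 8 in PRC1CPM cells (1 and 0 lower), with sums of 14099 to 30210 before and 30118 to 39773 after OHT in PRC1CKO cells, and of 19090 to 25682 and 23780 to 36388 in PRC1CPM cells; Sparc was the most abundant. For trophoblast it was 4 and 4 of 8 (1 and 0 lower), with Tfap2c the most abundant, and for endothelium and blood 5 and 4 of 9 (1 and 1 lower), with Pecam1 the most abundant. The sums were 1512 to 2044 before and 1695 to 2273 after OHT in PRC1CKO and 1263 to 1502 and 1781 to 2760 in PRC1CPM cells for trophoblast, and 4395 to 5781, 2779 to 3469, 6204 to 8949 and 3307 to 5615 in the same order for endothelium and blood.

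Neuronal markers were higher for 3 and 3 of 10 genes and lower for 4 and 1, with Stmn2 the most abundant and sums of 8179 to 12536 before and 7145 to 9331 after OHT in PRC1CKO cells, and of 8279 to 10424 and 6612 to 10814 in PRC1CPM cells. Muscle markers were higher for 1 and 0 of 10 genes and lower for 3 and 3, with sums of 1945 to 4370, 1512 to 2173, 2098 to 4177 and 1496 to 2853 in the same order and Ttn the most abundant. Fibroblast markers were higher for 3 and 2 of 9 genes, leaving out Prrx1, whose rise the rule fixed, and lower for 1 and 0, with sums of 66513 to 79082, 66126 to 76716, 55435 to 81734 and 46654 to 82635 and Fn1 the most abundant (Prrx1 included in the sums). Of the 2-cell-like markers 1 was measured, Eif1a, and it was called in neither line. No marker of these lists was at 0 in every library. Whether a share of cells changed type had a part in the rise of the 24 genes was not tested, and in bulk RNA more cells that express a gene and more RNA per cell cannot be told apart.

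When the same limits were applied with replicate 1, 2 or 3 of every group left out, 31, 24 and 19 genes met them, of which 21, 16 and 15 were among the 24. In the replicate that had been left out, the OHT value was above the untreated value in both lines for all 31, 24 and 19 genes. The share of other transcripts with this order was not counted, so nothing is read from these counts. The transcript for each gene name was still chosen by its sum over all 12 libraries, so that replicate was not fully held out. The limit of 50 was met in that replicate by 30, 24 and 15 of them in PRC1CKO cells and by 29, 17 and 14 in PRC1CPM cells. The untreated value was below 10 in that replicate for 20, 18 and 19 of them in PRC1CKO cells and for 12, 16 and 14 in PRC1CPM cells.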

How the data were processed

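RNA was measured in 12 libraries (3 per line and treatment) by 80 bp paired-end sequencing, and 12 gDNA libraries were used by the authors for scaling alone. The authors discarded rDNA reads, aligned the rest to mm10 and dm6 with STAR and Bowtie 2, removed duplicates and counted reads over gene bodies. The deposited values are normalised signals: counts divided by a DESeq2 size factor from Drosophila reads, corrected by gDNA-seq. The authors also deposited columns of log2 fold changes and p-values of their own comparisons, which were not used.

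Every value was a whole multiple of 1 step within 0.02 of a read, so reads were recovered (100% whole) and used in DESeq2 1.42.0 and edgeR 4.0.16 as alternatives. limma 3.58.1 in R 4.3.3 was fitted to log2(value + 1) with 1 mean per group, no block and a mean-variance trend. It was tested on simulated data with the same dispersion for every transcript and no effect of replicate number. That test does not cover the replicate pairing or genes with few untreated reads. The labels number the replicates alike in each group: libraries with the same number deviated together in all 3 pairs between the lines after OHT (lowest r 0.140), in all 3 before it, and in 17 of 18 pairs over all groups, so the fit with the number as a block is given beside each line comparison; the check was seen beside the calls. Positions are those of the deposited table on mm10, with 1 added to starts; sequences, exons and overlaps came from RefSeq on GRCm38.p6. Named by rule were genes called between the lines, the 5 highest and 5 lowest line differences, the 8 highest after OHT by level and per kb, the 5 with fewest untreated reads, those on a list and the 3 on each side of each limit; all others were named by role. The genes and lists were chosen with earlier results of these data known. Neighbours, overlapping genes and further genes of the lists were chosen after their values were seen. Intervals cover the spread between the biological replicates of 1 clone per line. Alternatives were DESeq2, edgeR, TMM and median-of-ratios scaling, no filter, a pseudocount of 0.1, a fold change above 2, the 6 libraries of each comparison, the replicate number as a block, and each library left out.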

Additional observations from a re-analysis of the deposited data

How the results depend on the processing

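Most alternatives left the counts between the lines at 0, and the exceptions follow; the cause was not tested. After OHT, members called lower in PRC1CPM cells numbered 3 in the fit of the 6 OHT libraries (Alx1, Zic1 and Nxph1), against 0 over all 12. Before OHT, leaving out each library in turn gave 0 to 1: Pitx1 (adjusted p = 0.0395 from limma) without untreated PRC1CKO replicate 1, and Rasgrf1 without replicate 2 of untreated PRC1CKO (0.0128) or of untreated PRC1CPM cells (0.0173). The median line difference after OHT ranged from -0.24 (without OHT-treated PRC1CPM replicate 1) to 0.018 (without its replicate 2) over the 12 fits, so its sign rests on single libraries; Gdf10 changed sign, to -0.036, without OHT-treated PRC1CKO replicate 3, and ranged up to 0.725 without OHT-treated PRC1CPM replicate 3. The number of genes that met the limits fell to 5 with an untreated limit of 5 and to 4 with an OHT limit of 100, and ranged from 19 to 31 when a replicate was left out; it was 20 with TMM scaling, 25 with every NM_ row and 32 with no names dropped. The difference of the median CG ratio from the comparison genes was 0.056 for the RefSeq promoter against all genes, 0.0034 for the window of about 1 kb and 0.544 against silent genes that stayed below 50. Few untreated reads and 3 libraries a group limit every fold change and comparison.

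With the replicate block, 1 gene was called lower in PRC1CPM cells after OHT (Alx1, adjusted p = 0.0415 from limma), 2 had an interaction below 0 (Pitx1, 0.0428; Rasgrf1, 0.0177) and 2 were called before OHT (Pitx1, 0.0331; Rasgrf1, 0.00139). The replicate block with DESeq2 called 3 lower after OHT (Zic1, 0.0114; Nxph1, 0.0282; Prrx1, 0.0486) and none in the interaction or before OHT. The pair that missed a correlation of 0.1 in deviations from the group means joined untreated and OHT-treated PRC1CKO replicate 2 (0.099); over transcripts with a mean of at least 50, all 18 pairs passed (lowest 0.127). All 12 libraries correlated best with their own number. The calls between the lines thus depend on the block, on the tool fitted with it and on the libraries included.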
